A study of Mus musculus with 14 samples.

Results

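Leukocyte integrins are described here by 10 genes, of 17890 genes in the table of the study's first phase: Itgb2, Itgam, Itgal, Itgax, Itga4, Itgb7, Itgb1, Itga5, Itga6 and Itgav. They were chosen by symbol and not by a cut-off on measured values, but with earlier results of these data known. All 10 were in the table and passed the filter on low counts. The RNA came from bone marrow of male C57BL/6J mice that were 8 weeks old when they were allocated at random to diabetes or control. Diabetes was induced with streptozotocin, which destroys the pancreatic cells that make insulin. Doses of 42 to 45 mg/kg were given on each of 5 days after a fast of 12 h. Mice with a blood glucose over 16.9 mmol/L were taken as diabetic and were kept hyperglycaemic for 6 weeks. In both groups, marrow progenitors were then cultured for 7 days with M-CSF in medium holding 5 mmol/L glucose, so that all libraries share the same normal-glucose culture. The D group (4 libraries) is the diabetic one by its initial. The M group (4 libraries) was taken as the healthy one because it is the only other group of that phase; no label explains its letter. Directions below compare D with M, and all of them would reverse if that reading were wrong. No label says that each library came from its own mouse, so p-values measure the spread between these libraries, which may be technical. The series has 14 samples, and the 6 second-phase ones were not analysed here.

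Integrins are cell-surface receptors made of 1 alpha and 1 beta chain, which hold cells to each other and to the matrix and carry signals in both directions across the membrane. On leukocytes, the beta2 chain (Itgb2, CD18) pairs with Itgal to form LFA-1, with Itgam to form Mac-1 (CD11b/CD18) and with Itgax to form CD11c/CD18. These receptors bind ICAMs, fibrinogen and complement-coated particles, and serve arrest on vessel walls, migration and uptake of particles. The alpha4 chain pairs with beta1 to bind VCAM-1 and fibronectin or with beta7 to bind MAdCAM-1, whereas Itga5, Itga6 and Itgav encode alpha chains of receptors for fibronectin, laminin and vitronectin.

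Of the 2 Itgam transcripts in the table, NM_008401 and NM_001082960, the second carries 3 additional coding bases at the start of exon 14 of 30. They are shown because the most abundant integrin gene of these libraries is counted as these 2 forms. The exon runs from 128101634 (longer form) or 128101637 (shorter form) to 128101846 on the forward strand of chromosome 7 of GRCm38. Below are the end of exon 13 and the start of exon 14, 5′ to 3′, with the additional bases in capitals.
NM_001082960: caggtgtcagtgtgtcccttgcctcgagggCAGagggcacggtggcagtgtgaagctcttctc
NM_008401: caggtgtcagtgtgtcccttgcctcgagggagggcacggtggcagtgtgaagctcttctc

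Itgam and Itgax lie next to each other on chromosome 7, encode partners of the same beta chain, and differed in their response below, so their promoters are shown. The sequences are the 250 bases before the start in RefSeq's promoter table (GRCm38.p6, forward strand), chr7:128062390-128062639 for Itgam and chr7:128129300-128129549 for Itgax. Capitals mark GAGGAA on either strand, the core bound by ETS factors such as PU.1, and TGANTCA, the AP-1 motif.
Itgam: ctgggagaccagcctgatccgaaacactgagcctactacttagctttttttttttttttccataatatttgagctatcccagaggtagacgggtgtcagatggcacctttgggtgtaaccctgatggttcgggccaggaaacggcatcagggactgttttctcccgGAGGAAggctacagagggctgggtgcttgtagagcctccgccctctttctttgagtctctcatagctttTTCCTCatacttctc
Itgax: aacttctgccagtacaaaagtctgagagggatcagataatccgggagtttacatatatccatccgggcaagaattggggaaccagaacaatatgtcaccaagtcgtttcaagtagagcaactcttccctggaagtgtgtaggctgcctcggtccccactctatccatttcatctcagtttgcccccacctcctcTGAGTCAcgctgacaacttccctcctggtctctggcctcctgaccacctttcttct

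The Itgam window held GAGGAA as written 84 to 79 bases before the start and its reverse complement 15 to 10 bases before it. The Itgax window held no GAGGAA and a single TGANTCA, 56 to 50 bases before the start that the promoter table uses. That start lies inside the gene as the gene table gives it (from 128129526), so the distance holds for the former only and the window's last bases are within the gene. Promoters were listed for 7 of the 10 genes. GAGGAA was in 4 of these 7 (Itgam, Itgav, Itgb1 and Itga5), against 23.1% of the 27025 mouse promoters of the same length. TGANTCA was in 1 of 7 against 6.87%, the Sp1 motif GGGCGG in 4 of 7 (Itga4, Itgam, Itgb1 and Itga5) against 32.9%, and TATAAA in 0 of 7 against 13%. All were searched on both strands, and the matches in the 2 printed windows do not overlap each other. The log2 fold changes of the 4 genes with GAGGAA, D relative to M, were 0.35 (Itgam), 0.30 (Itgav), 0.28 (Itga5) and 0.01 (Itgb1). Those of the genes with a listed promoter but no GAGGAA were 0.33 (Itgb7), -0.04 (Itgax) and -0.05 (Itga4). A link between the motifs and these changes was not tested.

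Library totals ran from 19048195 to 20027967 estimated counts. Markers of the labelled cell type, bone marrow derived macrophages, ranged widely. Lyz2 was at 8145 ± 1911 CPM (counts scaled to library size with edgeR's TMM factors; mean ± SD, n = 4 throughout) in D and 4606 ± 303 in M, Csf1r at 209 and 162, Cd68 at 179 and 192, Msr1 at 97.2 and 61.7, and Adgre1 (F4/80) at 87.3 and 46.7 CPM. Mertk was at 0.739 ± 0.193 CPM in D and 1.06 ± 0.328 in M, and the mannose receptor Mrc1 was at 2.59 and 2.05 CPM, while Cd5l, Timd4 and Marco were too low to test. The neutrophil genes S100a9 and S100a8 reached 18448 and 12286 CPM in D and 15195 and 8996 CPM in M. The libraries also held B cell, platelet and erythroid RNA, and in such a mixture fewer cells of a type and less RNA per cell cannot be told apart. On the first principal component of log2 CPM, which held 64.7% of the variance, D3 stood farthest from M (-54.5) and D1 nearest (-16), with the M libraries at 27.9 to 37.6; results are therefore also given without D1 and D3.

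The genes of LFA-1 and Mac-1 rose together in D, by 1.28- to 1.4-fold, and with them the beta7 and alpha5 chains; the alpha6 chain fell. Itgax, Itga4, Itgb1 and Itgav did not pass the test. Tested with edgeR (quasi-likelihood, Benjamini-Hochberg adjustment over 12839 genes), 5 of the 10 integrin genes were higher and 1 was lower at an adjusted p of 0.05. The same test called 34.7% of all tested genes, 17.4% higher and 17.3% lower. The median log2 fold change was 0.29 for the 10 genes and -0.03 for all tested genes. In 5 of the 10, every D library lay above every M library, which held for 16.3% of all tested genes; in 0 of the 10 every D library lay below, against 18.4% of all tested genes. The changes were of moderate size: the median absolute log2 fold change of called genes was 0.48, and 50% of them changed by at least as much as Itgb2, the integrin gene with the largest change.

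**Figure D1:**
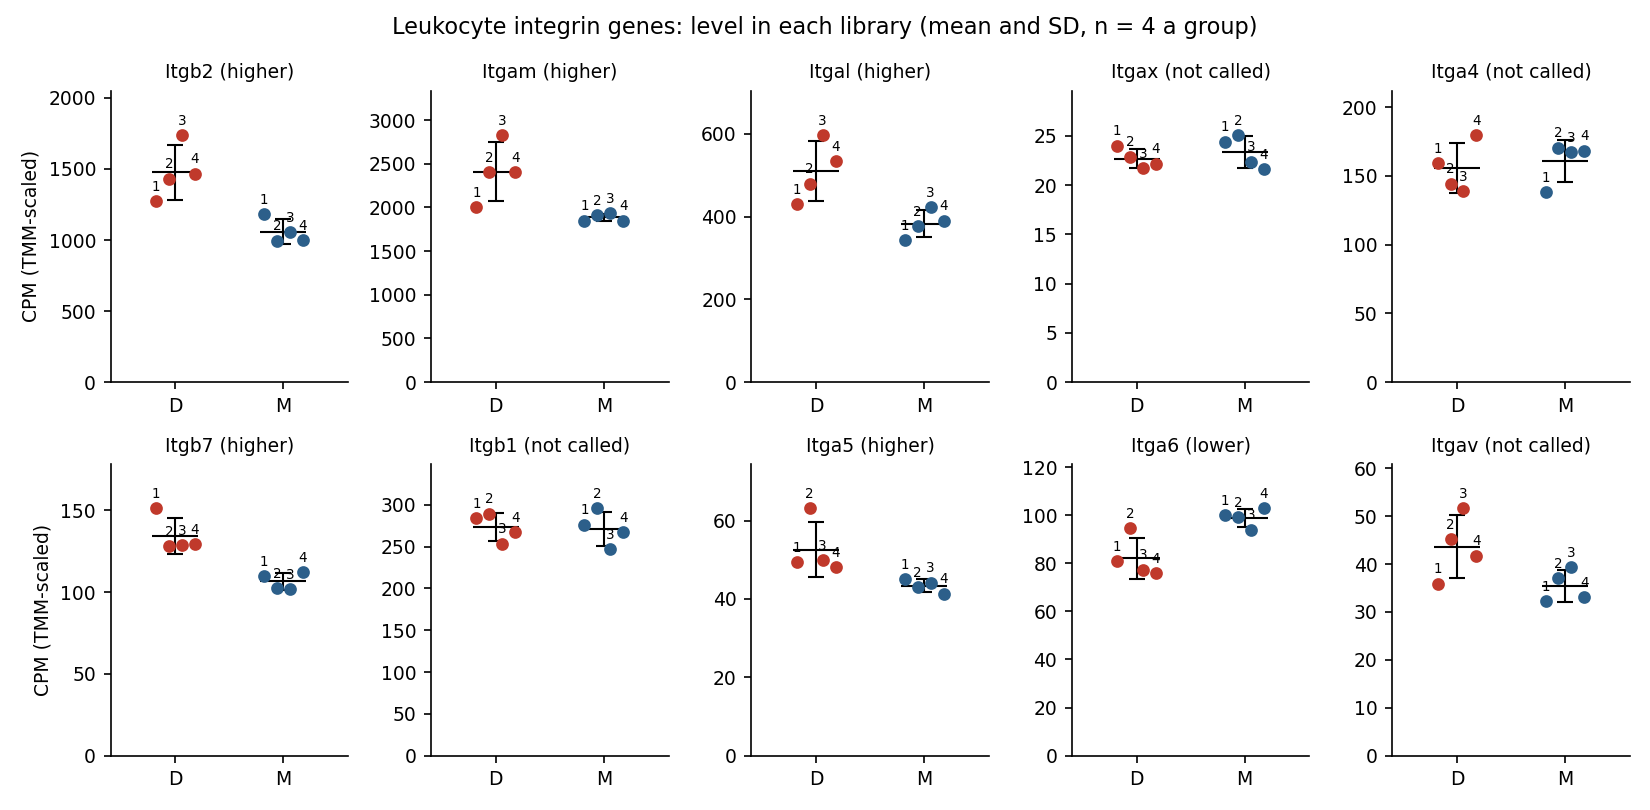
CPM of the 10 integrin genes in each library (points), with the group mean (line) and SD (bar) of the 4 D and 4 M libraries; each panel has its own axis. Itgb2, Itgam, Itgal, Itgb7 and Itga5 have all D points above all M points, while Itgax, Itga4 and Itgb1 overlap throughout.

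Itgb2, the beta chain shared by all leukocyte-restricted beta2 integrins (gene 16414, chromosome 10, 77530329 to 77565708), was at 1275, 1432, 1739 and 1466 CPM in D1 to D4 and at 1184, 996, 1055 and 998 CPM in M1 to M4. Every D library was above every M library, with D1 and M1 the nearest pair. The means of 1478 ± 193 and 1058 ± 88.2 CPM differed by a log2 fold change of 0.48 ± 0.10 (SE; edgeR adjusted p = 0.00553), and leaving out each library in turn kept the call in 8 of 8 fits. With the most abundant transcript in place of the gene sum, the log2 fold change was 0.38 and the call was lost (adjusted p = 0.0821).

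Itgam, the alpha chain of Mac-1 and a common marker of myeloid cells (gene 16409, chromosome 7, 128062640 to 128118491), was at 2003, 2402, 2830.2 and 2406 CPM in D and at 1848, 1913, 1934 and 1850.3 CPM in M. D3 was the highest, and D1 lay just above the M libraries, which were close together (1886 ± 43.6 CPM). The change was 0.35 ± 0.10 on the log2 scale (edgeR adjusted p = 0.0206). The call was lost without M1 (adjusted p = 0.0521) or M4 (0.058) and on the TPM scale with no filter (0.25, adjusted p = 0.071), with the direction kept.

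Itgal, the alpha chain of LFA-1, which T cells and myeloid cells share (gene 16408, chromosome 7, 127296139 to 127335137), was at 431, 480, 597 and 534 CPM in D and at 343, 378, 422 and 391 CPM in M. The groups did not overlap, although D1 and M3 were close. Itgal changed by 0.41 ± 0.11 on the log2 scale (edgeR adjusted p = 0.0126) and the call was kept in 8 of 8 fits with a library left out. Counting only its most abundant transcript, the change was 0.17 and not called (adjusted p = 0.244).

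Itgax, the CD11c alpha chain known as a marker of dendritic cells (gene 16411, chromosome 7, 128129526 to 128150657), did not move with its beta chain. It was at 24.0, 22.9, 21.7 and 22.2 CPM in D and at 24.4, 25.1, 22.4 and 21.6 CPM in M. The groups overlapped over most of their range, and the log2 fold change was -0.04 ± 0.08 (edgeR adjusted p = 0.706). None of 21 alternative analyses called it, with adjusted p from 0.218 to 0.965.

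In D, the libraries ranked in the same order, D1, D2, D4, D3 from lowest to highest, for Itgb2, Itgam (where D2 and D4 were nearly tied), Itgal and the summed CPM of 20 neutrophil markers. The neutrophil sum was 47216, 55870.2, 73053 and 59695 CPM in D1 to D4 and 40503 to 42512 CPM in M. All 20 markers were tested and 14 were higher and 0 lower in D, with a median log2 fold change of 0.73. For these and the marker counts below, 17.4% of all tested genes were higher and 17.3% lower. The sum of 17 macrophage markers, most of it Lyz2, ran from 7142 to 11558 CPM in D and from 4699 to 5526 CPM in M, with 10 of 14 tested markers higher, 0 lower and a median of 0.79. Classical monocyte markers summed to 4428 to 6507 CPM in D and 3531 to 3942 CPM in M, with 4 of 9 higher and 1 lower. In the macrophage and monocyte sums, D1 was also lowest and D3 highest of D, but D4 lay below D2. Pearson's r of log2 values over the 8 libraries includes the difference between the groups. With the neutrophil sum it was 0.96 for Itgb2, 0.98 for Itgam and 0.94 for Itgal. With the macrophage sum, and so mainly with Lyz2, it was 0.97, 0.97 and 0.93. The part of these cell types in the change of the beta2 genes was not tested. Dendritic cell markers, among which Itgax is often counted, had 0 of 13 higher and 6 lower, with sums of 269 to 521 CPM in D and 575 to 673 CPM in M.

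**Figure D2:**
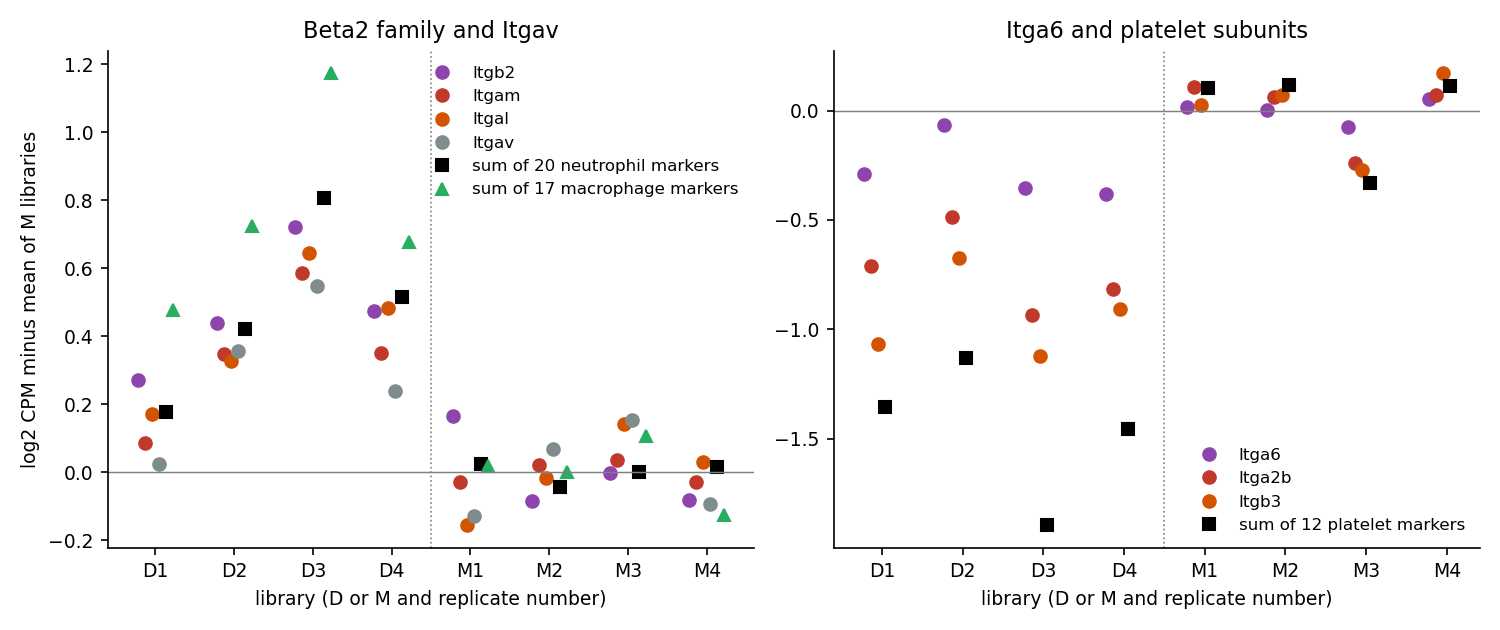
Log2 CPM in each library minus the mean of the M libraries, for the beta2 genes and Itgav with the summed neutrophil and macrophage markers (left) and for Itga6, Itga2b and Itgb3 with the summed platelet markers (right). On the left, D3 is highest and D1 lowest of the D libraries in every series; on the right, the platelet sum falls further than Itga6.

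Without D1 and D3, the libraries at either end of the D group, the beta2 genes kept their calls. Their log2 fold changes were then 0.48 for Itgb2, 0.37 for Itgam and 0.43 for Itgal (edgeR adjusted p = 0.00252, 0.00263 and 0.00501). Itgb7 and Itga5 were also called there (0.30 and 0.38; adjusted p = 0.00828 and 0.0175). Itga6 was not (-0.19; adjusted p = 0.13).

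Itga4, the chain that pairs with beta1 or beta7 and guides leukocytes to VCAM-1 (gene 16401, chromosome 2, 79255426 to 79333114), was at 159, 144, 139 and 180 CPM in D and at 138, 171, 167 and 169 CPM in M. D4 was the highest and M1 the lowest library, so the groups were interleaved. D and M differed by -0.05 ± 0.10 on the log2 scale (edgeR adjusted p = 0.713). Itga4 overlaps Cerkl on the genome, and reads shared by both could not be told apart without strand, which is not given in the sources used here.

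Itgb7, the beta chain of the gut-homing receptor for MAdCAM-1 and of the E-cadherin receptor (gene 16421, chromosome 15, 102215994 to 102233405), was at 151, 128, 129 and 129 CPM in D and at 110, 102, 102 and 112 CPM in M. D1, which was lowest in D for the beta2 genes, was highest here, and the groups did not overlap. Itgb7 changed by 0.33 ± 0.07 on the log2 scale (edgeR adjusted p = 0.00637), with the call kept in 8 of 8 fits with a library left out. Its adjusted p was 0.0519 when scaled by library totals and 0.0594 on the FPKM scale.

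Itgb1, the beta chain of most matrix receptors (gene 16412, chromosome 8, 128685654 to 128733579), was the least changed, at 284, 289, 254 and 267 CPM in D and at 276, 296, 247 and 267 CPM in M. Its log2 fold change was 0.01 ± 0.08 (edgeR adjusted p = 0.925) and took the opposite sign on the TPM and FPKM scales and with library totals. On the TPM scale, which allows for transcript length, Itgb7 made up 43.7 ± 1.91% of the sum of Itgb1 and Itgb7 in D and 38.3 ± 2.05% in M. The 4 D libraries, at 41.2 to 45.7%, were all above the M libraries, at 35.3 to 39.9%.

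Itga5, the alpha chain of the classical fibronectin receptor (gene 16402, chromosome 15, 103344286 to 103366791), was at 49.4, 63.1, 49.9 and 48.1 CPM in D and at 45.1, 43, 44.2 and 41.3 CPM in M. D2 stood far above the rest; the other D libraries, at 48.1 to 49.9 CPM, were just above the highest M library. The log2 fold change of 0.28 ± 0.09 (edgeR adjusted p = 0.0358) passed the threshold narrowly. Without D2 it was 0.18 (adjusted p = 0.0837), and the call was lost in 11 of 21 alternatives, among them the fits without any 1 of the 4 M libraries.

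Itga6, a laminin-receptor alpha chain found on platelets and on stem and progenitor cells (gene 16403, chromosome 2, 71786886 to 71858427), was the integrin gene that fell. It was at 80.9, 94.6, 77.3 and 76.0 CPM in D and at 100.1, 99.1, 93.9 and 102.8 CPM in M. D2 reached into the M range, just above M3, and the other D libraries were below it. Its fall was -0.27 ± 0.08 on the log2 scale (edgeR adjusted p = 0.0232), and 3 of 8 fits with a library left out kept the call. The losses came without D3 (adjusted p = 0.0605), D4 (0.101), M1 (0.0519), M2 (0.0528) or M4 (0.0654). Of 11 tested megakaryocyte and platelet markers, 11 were lower and 0 higher (17.3% of all tested genes were lower), with a median of -1.6. Their sum was 98.4 to 167 CPM in D against 291 to 397 CPM in M. M3 was lowest of M and D2 highest of D in both the platelet sum and Itga6. Stem and progenitor markers summed to 432.4 to 647.5 CPM in D and 723.3 to 776.8 CPM in M. In that sum D1 was highest of D and M2 lowest of M. Of its 10 tested markers 1 was higher and 2 were lower, against 17.4% and 17.3% of all tested genes. The part of platelet or progenitor RNA in the change of Itga6 was not tested.

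Itgav, the alpha chain of the vitronectin receptors, which pairs with several beta chains (gene 16410, chromosome 2, 83722303 to 83806917), was at 35.9, 45.2, 51.6 and 41.7 CPM in D and at 32.3, 37.0, 39.3 and 33.1 CPM in M. D1 lay among the M libraries and the other D libraries above them. The log2 fold change of 0.30 ± 0.11 did not pass the threshold (edgeR adjusted p = 0.0587). It did in 5 of 21 alternatives, among them with the replicate number as a block (0.29, adjusted p = 0.0121), without D1 (0.41, adjusted p = 0.00702) and with DESeq2 (adjusted p = 0.0355).

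Ordered by TPM over all 8 libraries, Itgam (mean 853, range 738 to 1038) and Itgb2 (831, 679 to 1057) came first and overlapped each other. Their ranks among all genes were 163 and 166, and they made up 39.7% and 38.7% of the summed TPM of the 10 genes. Itgal followed at 160 TPM (124 to 197), overlapping Itgb1 at 122 (104 to 136), which in turn touched Itgb7 at 84.6 (74.5 to 106). Itga4 (30), Itga6 (28.4) and Itga5 (20.3) formed the next group, in which neighbours overlapped. Itgax (10.9) and Itgav (10.3) were lowest and overlapped. On this scale, as on the CPM scale, Itgb2 and Itgb7 were higher in every D library than in every M library. Itga6 was lower in every D library (25.0 ± 3.23 against 31.8 ± 0.959 TPM). Itgam, Itgal and Itga5, whose groups were apart in CPM, overlapped here. For Itgam and Itgal a single pair of libraries did so, and for Itga5 D3 (19.4 TPM) and D4 (19.7) did not exceed M3 (19.7).

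**Figure D3:**
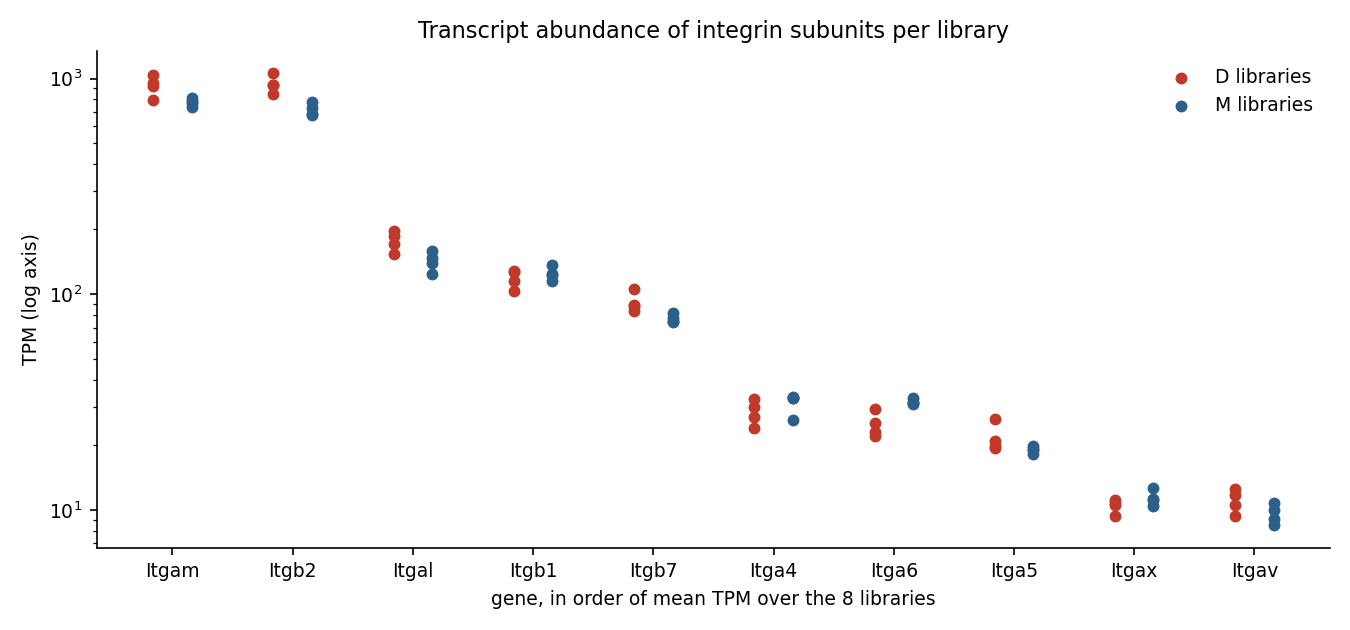
TPM of the 10 integrin genes in the 8 libraries, ordered by their mean, on a log axis; points are libraries and colours the D and M groups. Itgam and Itgb2 stand apart at the top, and Itgax and Itgav are lowest.

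Within the beta2 family the shares of the main alpha chains overlapped between the groups. Itgam made up 83.2 ± 0.628% of the summed TPM of Itgam, Itgal, Itgax and the rare Itgad in D and 83.5 ± 0.828% in M. The share of Itgal was 15.9 ± 0.59% and 15.3 ± 0.925%. Itgax made up 1.15, 0.95, 0.751 and 0.944% in D and 1.29, 1.34, 1.13 and 1.12% in M, where D1 alone overlapped the M libraries. The summed alpha chains per Itgb2 were 1.14 to 1.21 in D and 1.12 to 1.39 in M, with M1 apart from the other M libraries. Among Itga4, Itga5, Itga6 and Itgav, the share of Itga5 was 25.0 ± 2.16% in D and 20.7 ± 1.29% in M and that of Itga6 28.9 ± 1.8% and 34.7 ± 1.83%. Neither of these shares overlapped between the groups; these are values with no test.

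The 10 genes had 24 transcripts in the table, of which 21 were tested. With edgeR's quasi-likelihood test over 32312 transcripts, 0 of them were called at an adjusted p of 0.05, and 10 had an unadjusted p under 0.05; the test called 4.08% of all transcripts. Leaving out D1 raised the count from 0 to 4. A count of 0 does not show that the transcripts were alike. A change in the use of transcripts was called for 0 of the 6 genes with at least 2 tested transcripts (edgeR's diffSpliceDGE; 0 also at an unadjusted p under 0.05), against 0.764% of 7457 genes.

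The 2 Itgam forms that differ by the 3 bases printed above were both higher in every D library than in every M library, at 1512 ± 193 against 1163 ± 56.4 CPM for NM_008401 and 910 ± 121 against 738 ± 28.3 CPM for the form with CAG, although neither passed the test over all transcripts (edgeR adjusted p = 0.0798 and 0.151). NM_008401 took 61.9, 64.1, 61.8 and 61.8% of the gene's counts in D and 61.1, 63.5, 61.3 and 58.9% in M. The form with CAG took the rest, 37.6 ± 1.15% in D and 38.8 ± 1.9% in M. These shares overlapped between the groups. Of the 5 Itgal transcripts, NM_001253873 took 49.7 ± 3.35% in D and 58.0 ± 2.51% in M, with all D libraries (45.1 to 52.5%) below all M libraries (54.6 to 59.9%), although the test of usage did not call the gene (unadjusted p = 0.318). Itgb2 was mostly NM_008404, at 72.4 ± 4.41% and 77.8 ± 4.09%. Itga6 shows how uncertain such shares can be: its predicted form XM_011239308 took 12.2 to 40.4% in D, but 29.6, 0.00302, 31.2 and 0.0522% in M1 to M4.

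**Figure D4:**
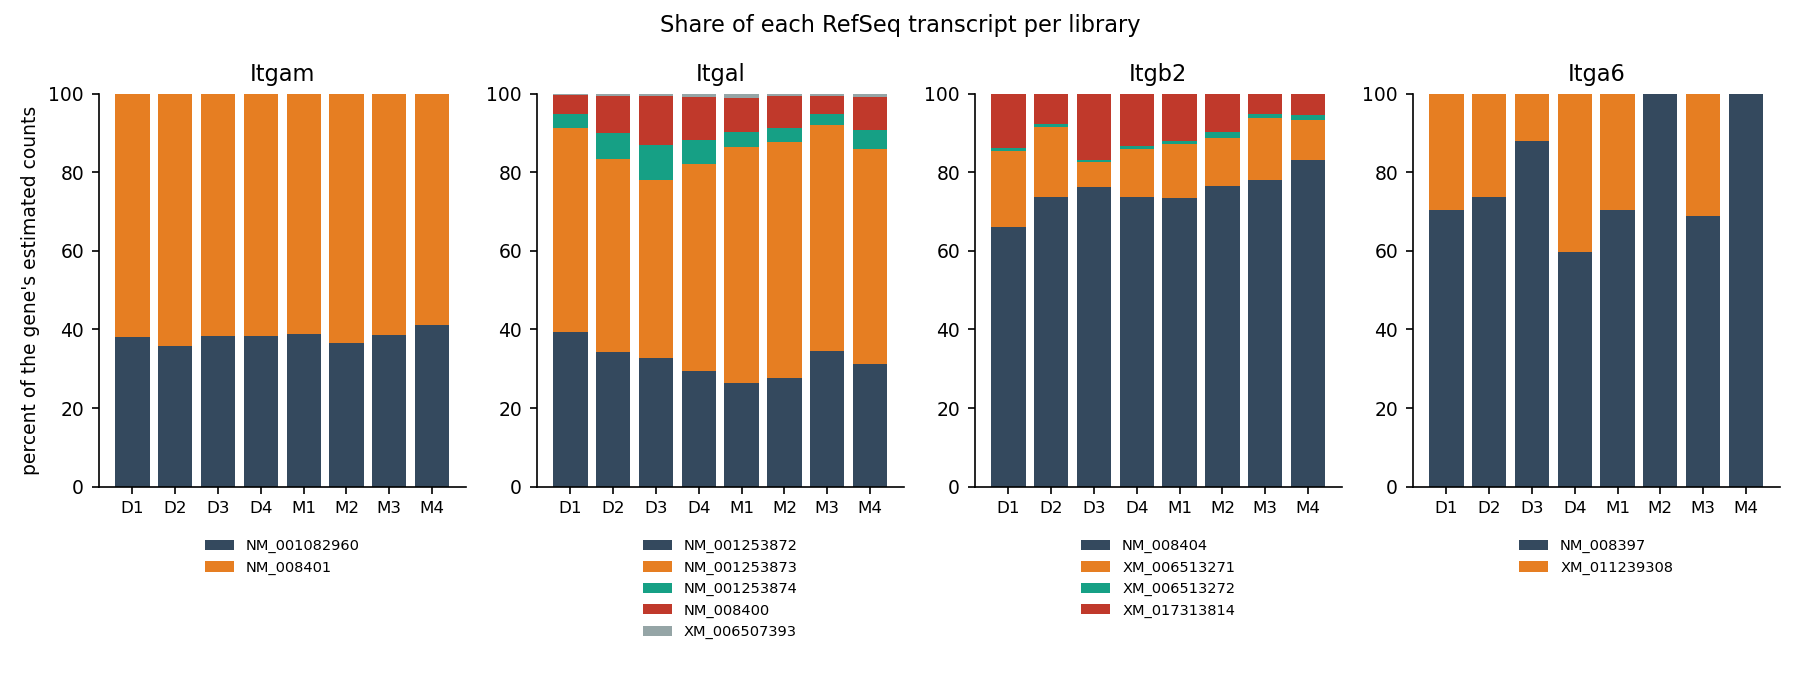
Percent of the gene's estimated counts assigned to each transcript in each library, for integrin genes with more than 1 main transcript. The Itgam shares are nearly level over the 8 libraries, whereas those of Itga6 swing between M libraries.

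By Pearson's r of log2 CPM over the 8 libraries, which includes the difference between the groups, the genes most like Itgb2 were Cpne2 (0.994), Pilrb2 (0.992), and Plp2, Ngp and Myl12b (0.991 each). Ngp encodes a neutrophil granule protein and Myl12b a myosin regulatory light chain. The genes most like Itga6 were Hpgd (0.981), Ppic and Hmga1b (0.979 each), and Ddit4l and Col18a1 (0.974 each).

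Of 16 other integrin subunits in the table, 11 were tested. Of these, 1 rose and 3 fell (36.4% called, against 34.7% of all tested genes), with a median log2 fold change of -0.18. The pair that forms the platelet fibrinogen receptor, Itga2b and Itgb3, was among those that fell. Itga2b was at 101, 117, 85.9 and 93.5 CPM in D and at 177, 172, 139 and 173 CPM in M (log2 fold change -0.73; edgeR adjusted p = 0.000755). Itgb3, its partner and also a partner of Itgav, was at 74.3, 97.5, 71.5 and 82.9 CPM in D and at 159, 164, 129 and 175 CPM in M (-0.94; adjusted p = 0.00029). M3 was lowest of M for both, as for Itga6 and the platelet markers. The rarer Itga9 was lower, at 0.323 ± 0.317 CPM in D and 3.59 ± 0.638 in M, and Itga8 was higher, at 3.85 ± 1.12 and 1.29 ± 0.243 CPM (adjusted p = 0.000309 and 0.00103). Itgb5, another partner of Itgav, was at 37.6 ± 6.03 and 39.2 ± 3.62 CPM and was not called (adjusted p = 0.697). Itga1, at 26.4 ± 6.1 and 17.2 ± 6.14 CPM, and Itga2, at 4.61 and 6.29 CPM, were not called either (edgeR adjusted p = 0.0915 and 0.0517). Itga2 was called lower with the replicate block (-0.44, edgeR adjusted p = 0.042), library totals (0.0247), a minimum count of 50 (0.0492) and without M3 (0.0112). Itga1 was called higher with DESeq2 (0.65, adjusted p = 0.0269). Itga3, Itga10, Itgad and Itgae were under 3 CPM on average and not called, and Itga7, Itga11, Itgb4, Itgb6 and Itgb8 were too low to test.

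**Figure D5:**
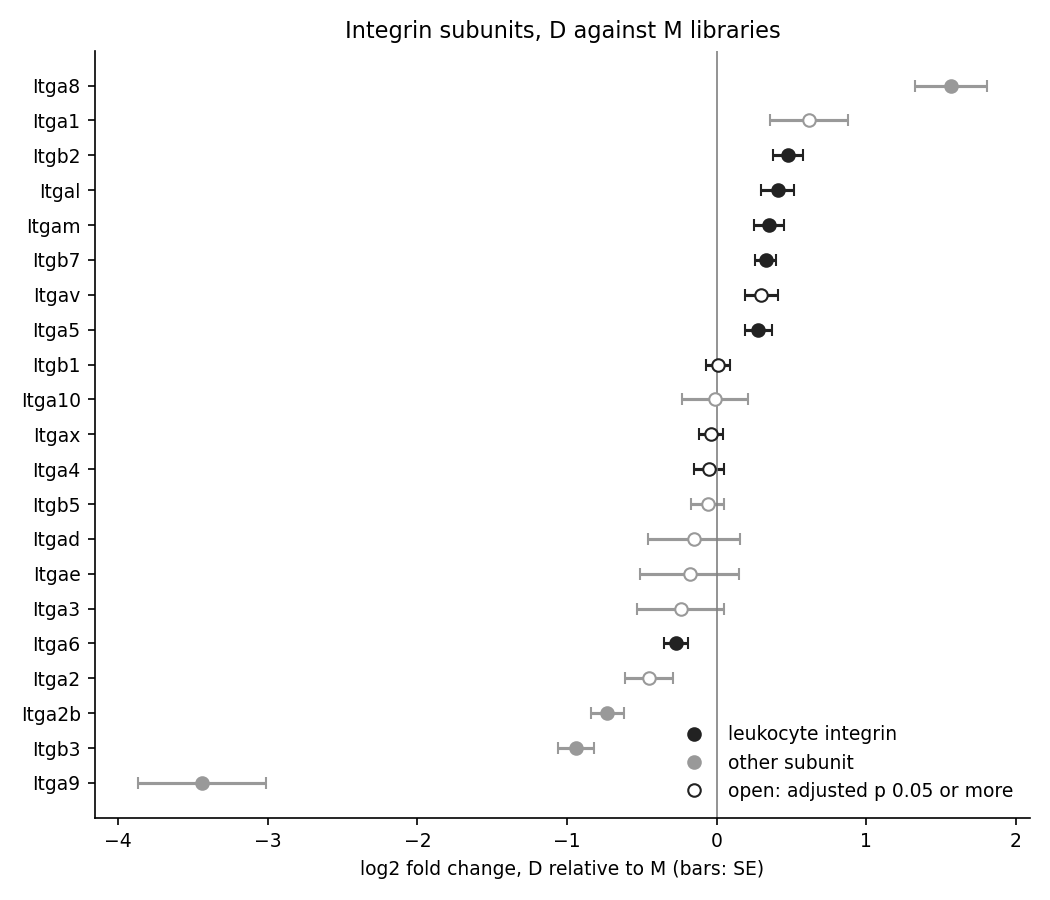
Log2 fold change (D relative to M) with its SE (edgeR) of the 10 leukocyte integrin genes (black) and the 11 other tested subunits (grey); open points did not pass an adjusted p of 0.05. The leukocyte integrin genes lie between -0.27 (Itga6) and 0.48 (Itgb2), inside the range of the other subunits, from -3.44 (Itga9) to 1.57 (Itga8).

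Of 38 tested genes for proteins that activate integrins from inside the cell or carry their signals, 15 rose and 4 fell. The called share was 50%, against 34.7% of all tested genes, and the median was 0.16. Those that rose include Rap1a, Rap1b and Apbb1ip (RIAM), which bring talin to the beta chain, and the kinases Fgr and Lyn, which act downstream of beta2 integrins in myeloid cells. Fgr was at 328, 432, 542 and 437 CPM in D and at 252, 242, 263 and 247 CPM in M (log2 fold change 0.79; edgeR adjusted p = 0.00122). The adaptor Lcp2 (SLP-76) was at 225 ± 29.7 and 145 ± 7.85 CPM (0.63; adjusted p = 0.000807). Fgr, too, was lowest in D1 and highest in D3 within D. Vav2 fell by 1.81 on the log2 scale, at 16.1 ± 3.46 and 56.6 ± 5.75 CPM (adjusted p = 3.18e-05), as did Src, at 5.85 ± 1.58 and 16.8 ± 2.71 CPM (-1.52; adjusted p = 0.000334). Lims1 (PINCH) was at 471 ± 49.6 and 333 ± 19.8 CPM (0.50; adjusted p = 0.00189). Neither it nor Src was called when only its most abundant transcript was counted (adjusted p = 0.401 and 0.207). The talin gene Tln1 and the kindlin gene Fermt3, both needed for beta2 activation and chosen here after their values were seen, were not called (0.15 and -0.10; adjusted p = 0.213 and 0.384).

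Negative regulators were mixed, with 2 of 13 tested higher, 2 lower (30.8% called, against 34.7% of all tested genes) and a median of -0.11. The split depends on the scaling, with 1 higher and 4 lower under library totals and 1 higher and 5 lower on the FPKM scale; on the TPM scale 5 were lower. Filamin (Flna), which competes with talin on the beta tail, was at 2094 ± 192 and 1730 ± 45 CPM (0.28; edgeR adjusted p = 0.0256) and Dok2 at 50.1 ± 10.1 and 31.3 ± 2.38 CPM (0.68; adjusted p = 0.00295). The Flna call was lost under library totals (adjusted p = 0.0806), FPKM (0.054), TPM with no filter (0.0511) and the most abundant transcript (0.0899), and without D4 (0.0616), M2 (0.0741), M3 (0.0599) or M4 (0.0599). Sharpin, an inhibitor that binds alpha tails, was at 45.3 ± 0.837 and 56.8 ± 6.43 CPM (-0.33; adjusted p = 0.0112), and Tns1 at 36.2 ± 9.28 and 69.5 ± 11.8 CPM (-0.94; adjusted p = 0.00368, lost at 0.1 for its most abundant transcript).

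Ligand genes went both ways, with 10 of 32 tested higher and 11 lower (65.6% called, against 34.7% of all tested genes, median -0.03). Those lower include the basement membrane genes Lamc1, Col4a1, Col4a2 and Nid1, with Col4a1 at 2.51 and 7.62 CPM (-1.60; edgeR adjusted p = 0.00408), and the LFA-1 ligand Icam2 at 17.8 ± 1.3 and 26.9 ± 3.74 CPM (-0.60; adjusted p = 0.00218). Stromal and endothelial markers were lower beside them, 6 of 7 tested, against 17.3% of all tested genes. Col1a1 is in both lists and was lower. The marker sums were 72.9 to 92.4 CPM in D and 105 to 137 CPM in M. Most of them was Pecam1, at 53.3 CPM in D and 72.4 in M. The part of stromal and endothelial RNA in the ligand values was not tested. Ltbp1 and Lrrc32, which hold latent TGF-beta and so serve Itgav receptors, were lower (-1.33 and -2.16; adjusted p = 0.000616 and 0.000192), but neither passed when only its most abundant transcript was counted (adjusted p = 0.0676 and 0.162). Thy1, which Mac-1 can bind, was at 11 ± 1.06 and 4.92 ± 0.92 CPM (1.16; adjusted p = 0.000293), and Adam15 at 138 ± 13.6 and 102 ± 6.64 CPM (0.43; adjusted p = 0.00354, lost at 0.0528 for its most abundant transcript). Fibronectin (Fn1) and osteopontin (Spp1), named after their values were seen, rose with a wide spread, Fn1 from 12.7 ± 3.9 to 77.8 ± 48.6 CPM and Spp1 from 149 ± 35.6 to 542 ± 309 CPM (2.61 and 1.86; adjusted p = 0.00702 and 0.0113). The main counter-receptors Icam1 and Vcam1, also named afterwards, were not called (adjusted p = 0.444 and 0.891).

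Of 13 transcription factors known for myeloid integrin genes, 3 were higher and 2 lower, with a median of -0.03. The called share was 38.5%, against 34.7% of all tested genes. Under library totals, TPM, FPKM and the most abundant transcript, 1 was higher. Spi1, which encodes PU.1, was at 360 ± 34.3 and 301 ± 7.93 CPM (0.26; edgeR adjusted p = 0.0253), a call lost under library totals, TPM and FPKM, with the most abundant transcript (adjusted p = 0.255), and without D4 (0.0645), M2 (0.0662) or M4 (0.0736). Gata2 was at 80.5 ± 17 and 52.8 ± 1.8 CPM (0.61, edgeR adjusted p = 0.00415). Beside it, 7 of 8 tested basophil and mast cell markers, Gata2 among them, were higher, against 17.4% of all tested genes. Myb, a factor of immature cells, was at 219 ± 40.2 and 395 ± 15.2 CPM (-0.85; adjusted p = 0.000501). Fli1 passed narrowly (0.19; adjusted p = 0.0458) and turned to -0.41 with the most abundant transcript (adjusted p = 0.075). Its call was also lost with the replicate block (adjusted p = 0.0621), under library totals (0.306), TPM and FPKM, with no filter (0.065), and in each fit with a library left out except that without D1 (0.0504 to 0.131). Ets1 (-0.21; adjusted p = 0.0251) was not called without D2, D4, M1 or M3.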

How the data were processed

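Poly(A) RNA was sequenced as DNA nanoballs. Per the labels, SOAPnuke 1.5.6 filtered the reads and a tool spelled HISTA2 (version 2.1.0) placed them on mm10; limma 3.66.0 is named there for the authors' own tests. How transcripts were quantified, with which annotation and whether by strand is not given in the sources used here. Per the file headers, the authors deposited unnormalized estimated counts for each RefSeq transcript, of which 37.3 to 40.8% were exactly whole. The authors also deposited TPM and FPKM per transcript, scaled by length, and a signal of scaled counts, which was not used, nor were 8 columns of group means.

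The table held 60072 transcripts of 17890 genes. Each gene's transcripts were summed and the sums rounded, filtered with filterByExpr (minimum count 10, minimum total 15) and tested with edgeR 4.0.16 (TMM, robust quasi-likelihood, group only; R 4.3.3) with Benjamini-Hochberg adjustment. The scripts were tested on simulated data. CPM uses TMM-scaled totals. TPM and FPKM were tested with limma 3.58.1 on log2(value + 1), which understates changes of low genes. DESeq2 1.42.0 and leaving out libraries were among the alternatives. Same-numbered libraries deviated together weakly (correlations 0.115, 0.131, 0.118 and 0.182, against -0.178 to 0.0735 for other pairs). The numbers may therefore pair the samples, which no label says. The main test used the group only, so its p-values leave out any such pairing. The replicate block is given as an alternative. No library was a copy of another (chi-square of 6.49 to 66.3 per gene between replicates). The lowest estimated count of any of the 10 integrin genes in a library was 394 (Itgax), and counting error was not separated from the spread between libraries; the rarer subunits had far fewer.

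The members and lists were chosen with earlier results of these data known. Named genes were all integrin subunits, up to 6 called genes of lowest p per pathway list, marker genes of highest CPM, and the 5 genes most like the called higher and lower member of lowest p. One gene that this rule names is not reported here. Sequences came from RefSeq and GENCODE on GRCm38. Of the marker lists, T cell (6 higher, 1 lower of 13), NK (6 and 0 of 8), eosinophil (6 and 0 of 9), B and plasma cell (1 and 13 of 19), erythroid (0 and 1 of 10) and osteoclast genes (0 and 1 of 5) are given here only. Of all tested genes, 17.4% were higher and 17.3% lower.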

Additional observations from a re-analysis of the deposited data

Results flagged for a closer look

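In 8 of 60 groups of 4 libraries, 1 library lay apart from the other 3 by Dixon's 95% criterion; chance flags about 1 in 20. Itga4 was at 138 CPM in M1 and 167 to 171 in the other M libraries, and its share among Itga4, Itga5, Itga6 and Itgav was 30.7% in M1 against 35.1 to 35.5%. The summed beta2-partner alpha chains per Itgb2 were 1.12 in M1 and 1.35 to 1.39 in the others. Itgb7 was at 151 CPM in D1 and 128 to 129 in the other D libraries. Itga5 was at 63.1 CPM in D2 and 48.1 to 49.9 in the others. The Itgam forms NM_001082960 and NM_008401, whose shares sum to the whole and so count once, stood at 35.9% and 64.1% in D2 against 38.1 to 38.2% and 61.8 to 61.9%. The Itgal form NM_008400 was at 4.7% in M3 and 8.14 to 8.7% in the other M libraries.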

How the results depend on the processing

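The replicate block called 6 integrin genes higher (Itgav in addition) and 1 lower and changed no other call among them; of the other genes named, it changed the calls of Itga2 and Fli1. The count of 5 higher became 3 under library totals and FPKM, 1 under TPM with no filter and 2 with the most abundant transcript; over single libraries left out it ran from 3 to 6. The count of 1 lower became 0 with the most abundant transcript and without D1 and D3 together (chosen after seeing the data), and ran from 0 to 1 over single libraries left out. Library totals shifted the median of all genes by -0.10 (log2) and TPM by -0.08, and the share of calls that were higher moved from 50.1% to 31.3% and 33.2%. The most abundant transcript called 2092 genes instead of 4456. The most abundant transcript also lowered the ligand counts to 6 higher and 3 lower and the activators lower to 1 (7 under TPM with no filter), and the higher count of other subunits was 0 on the TPM and FPKM scales and with a minimum count of 50 and 2 with DESeq2. Transcript calls ran from 0 to 4 over single libraries left out. Some values near 0 changed sign, none of them called: Itgb1 was -0.09 with library totals and FPKM and -0.08 with TPM under both pseudocounts and with no filter, and it ran from -0.03 to 0.06 over single libraries left out. Over such fits Itga4 ran from -0.12 to 0.02, Itga10 from -0.13 to 0.17, Itgad from -0.3 to 0.08 and Itgae from -0.35 to 0.01. Without D1 and D3, Itga4 was 0.03, Itga10 0.04 and Itgad 0.23. Itga10 was also 0.02 with DESeq2's factors and test, 0.03 with voom and 0.01 with the replicate block. With the most abundant transcript alone, Fli1 was -0.41, and among beta2 alpha chains the Itgam share was 1.92 points higher and the Itgal share -1.46 points in D. The causes were not tested.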
